A study of Mus musculus with 16 samples.

Results

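The genes described are 35 members of the unfolded protein and heat shock responses, taken by symbol from a list and all found among the 24421 genes of the tables. They comprise 4 sensors and transcription factors of the unfolded protein response (UPR), 9 chaperones and folding enzymes of the endoplasmic reticulum (ER), 4 genes of ER-associated degradation, 7 genes of the integrated stress response, 8 cytosolic heat shock chaperones and co-chaperones, the 2 subunits of the mitochondrial chaperonin, and Hsf1. RNA was sequenced from C57BL/6 mouse embryos lacking the microRNA cluster miR-302 (KO) and from wild-type embryos (WT) at embryonic days 7.5, 8.5 and 9.5 (E7.5, E8.5, E9.5). At E7.5 whole embryos gave 2 WT and 2 KO libraries, at E8.5 cells sorted as Wnt1-Cre positive neural crest gave 3 WT (WT1_5s, WT2, WT3) and 4 KO libraries (KO1 to KO4), and at E9.5 cells sorted as Sox10 positive neural crest gave 2 of each. The labels name neither the deletion allele nor the reporter, and do not say which libraries came from separate embryos or litters, so that p-values measure the spread between these libraries, which may be technical. An E8.5 library labelled KO4_5s was not analysed here.

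The unfolded protein response detects misfolded protein in the ER lumen through 3 membrane sensors, IRE1 (Ern1), PERK (Eif2ak3) and ATF6 (Atf6). IRE1 splices the Xbp1 transcript, ATF6 is cut to release a transcription factor, and PERK phosphorylates eIF2alpha, which slows translation while favouring that of Atf4. ATF6 and XBP1 act at ER stress response elements (ERSE) in the promoters of ER chaperone genes, ATF4 at amino acid response elements (CARE), and HSF1, the factor of the cytosolic response, at heat shock elements (HSE). Embryonic cells that secrete matrix and signalling proteins use the same ER chaperones in normal development.

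Of the microRNAs of the deleted cluster, miR-302b, miR-302c and miR-302d are shown first, as RefSeq gives their mature 3p strands (GRCm38.p6, chromosome 3, plus strand), with bases 2 to 8, the seed, in capitals. miR-302b and miR-302d have the same seed, and miR-302c as annotated starts 1 base later. miR-302a, also of this cluster, is not printed here.
mmu-miR-302b-3p: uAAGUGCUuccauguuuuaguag
mmu-miR-302c-3p: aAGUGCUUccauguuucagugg
mmu-miR-302d-3p: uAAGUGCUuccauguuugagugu
The annotated 3′UTRs of the 35 members were searched for the matching 8mer AGCACTTA and the 7mers AGCACTT and GCACTTA. An 8mer lies in 2 members, Os9 and Dnaja1, which is 5.714% of the members against 3.112% of 20145 genes with an annotated 3′UTR. A 7mer or 8mer lies in 7 (these and Ern1, Atf6, Dnajb9, Pdia6 and Edem1), 20% of the members against 18.89% of those genes. The 8mer sites of these genes are printed because Os9 had the smallest p of the list at E8.5, and capitals mark the match.
Os9: aacttcttAGCACTTAaccc
Dnaja1: cccttatgAGCACTTAtggt
In Os9 the match starts at base 261 of a 3′UTR of 597 bases, and in Dnaja1 at base 4160 of 4203. The log2 fold change, KO minus WT, at E8.5 was 1.22 for Os9 and -0.09 for Dnaja1, and neither passed the threshold used below. A match is a description of these letters and not a measured target site.

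RefSeq promoters, 250 bases before to 50 after a start site, were found for 30 of the 35 members. A gene can have several, and shares are per gene for the members and per promoter for all. The ERSE, searched on both strands as its consensus of CCAAT and CCACG separated by 9 bases, was in the promoters of 6 members (Hspa5, Hsp90b1, Dnajc3, Pdia6, Calr and Canx), 20% of those with a promoter, against 0.119% of all 32851 promoters. The CARE, TGATGNAA, was in 4 (Herpud1, Trib3, Chac1 and Asns), 13.3% against 3.97%. An HSE of 3 alternating GAA and TTC units spaced by 2 bases was in 3 (Hsph1, Hspd1 and Hspe1), 10% against 0.603%. The UPRE core, TGACGTGG, was in 0 member promoters and in 0.676% of all, which says only that these letters are not in these windows. CCAAT alone, which is also part of every ERSE, was in 73.3% of members and 37.4% of all promoters. The matched ERSE letters, read in the direction of the consensus, were as follows.
Hspa5: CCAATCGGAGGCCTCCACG
Hsp90b1, upstream copy: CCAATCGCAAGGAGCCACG
Hsp90b1, downstream copy: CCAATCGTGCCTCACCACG
Canx: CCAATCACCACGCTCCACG
Pdia6: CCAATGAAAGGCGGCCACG
Dnajc3: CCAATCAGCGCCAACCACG
Calr: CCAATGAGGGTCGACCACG
They start 65 bases (Hspa5) to 212 bases (upstream copy of Hsp90b1) before the start site. The whole promoter of Hspa5, the gene of the ER chaperone BiP, lies at chr2:34771840-34772139 on the plus strand, with the ERSE in capitals.
Hspa5: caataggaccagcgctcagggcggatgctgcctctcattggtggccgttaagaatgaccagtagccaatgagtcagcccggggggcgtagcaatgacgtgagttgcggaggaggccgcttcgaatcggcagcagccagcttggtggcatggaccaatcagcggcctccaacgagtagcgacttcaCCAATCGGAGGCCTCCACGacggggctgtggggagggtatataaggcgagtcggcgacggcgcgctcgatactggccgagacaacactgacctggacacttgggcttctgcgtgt

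Libraries held 4912827 to 14861728 gene-assigned reads, recovered from the deposited normalised counts. Reads on miR-302 precursors numbered 14 and 25 in the E7.5 WT libraries and 0 in both E7.5 KO libraries, and were 0 or 1 in every later library, so this check says nothing about the genotype labels after E7.5. Wnt1 was at 313 to 1094 normalised counts at E8.5, and Sox10 at 511 to 1165 at E9.5 and 662 to 1017 at E8.5. In the E7.5 whole embryos the summed level of 10 trophoblast markers was 7174 to 11958 in WT and 31318 to 55690 in KO. Of these markers 6 were higher in both KO libraries and 1 was lower. The summed level of 10 uterine gland and decidua markers was 7809 to 18145 in WT and 6059 to 6066 in KO, with 7 lower and 0 higher. In the E9.5 KO libraries the summed markers of several other cell types were higher than in WT. The summed level of 10 erythroid markers was 11.1 to 22.7 normalised counts in WT and 301 to 274092 in KO, with Hba-a1 at 0 in all 4 libraries. That of 10 visceral endoderm markers was 91.8 to 135 against 1358 to 3140, and that of 8 macrophage markers 13.2 to 14.1 against 171 to 347. Of the macrophage markers 6 were at 0 in both WT libraries and Adgre1 was at 0 in all 4. The summed level of 12 neural crest markers was 5100 to 5180 in WT and 2224 to 3788 in KO. That of 9 markers of migrating crest and glial precursors overlapped on this scale, at 2016 to 2235 in WT and 1207 (KO1) and 2377 (KO2) in KO. Scaled to each library's total (RPM), these 9 did not overlap, at 302 (WT1) and 269 (WT2) against 92.5 (KO1) and 163 (KO2). The 12 neural crest markers were at 690 and 691 in WT against 171 and 259 in KO on RPM. The median log2 fold change of all genes on RPM was -1.08. A number in the labels, whose meaning they do not give, is 171 for both KO and 209 for both WT libraries at E9.5, and it and the genotype cannot be told apart there. The part that these differences play in the results below was not tested.

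KO was compared with WT at each stage on log2(normalised count + 1) for genes with a mean of at least 10, with limma and Benjamini-Hochberg adjustment over all genes tested, and a gene was called at an adjusted p below 0.05. At E7.5, 34 of the 35 members were tested and 0 were called, with a median log2 fold change of 0.06 against -0.01 for all 12492 genes. At E8.5, 34 were tested and 0 were called, with a median of -0.005 against -0.03 for 12257 genes. The background was also 0% called at both stages, and edgeR called 0 members at either, DESeq2 0 at E7.5 and 1 at E8.5. At E9.5, 33 were tested and 19 (57.6%) were called, 6 higher and 13 lower in KO, where 47.5% of all 12000 genes were called (24.5% higher and 23% lower). The median of the members at E9.5 was -0.55 against -0.14 for all genes. In bulk samples, fewer cells of a type and less RNA per cell cannot be told apart. Whether the KO effect differed between stages was not tested.

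**Figure D1:**
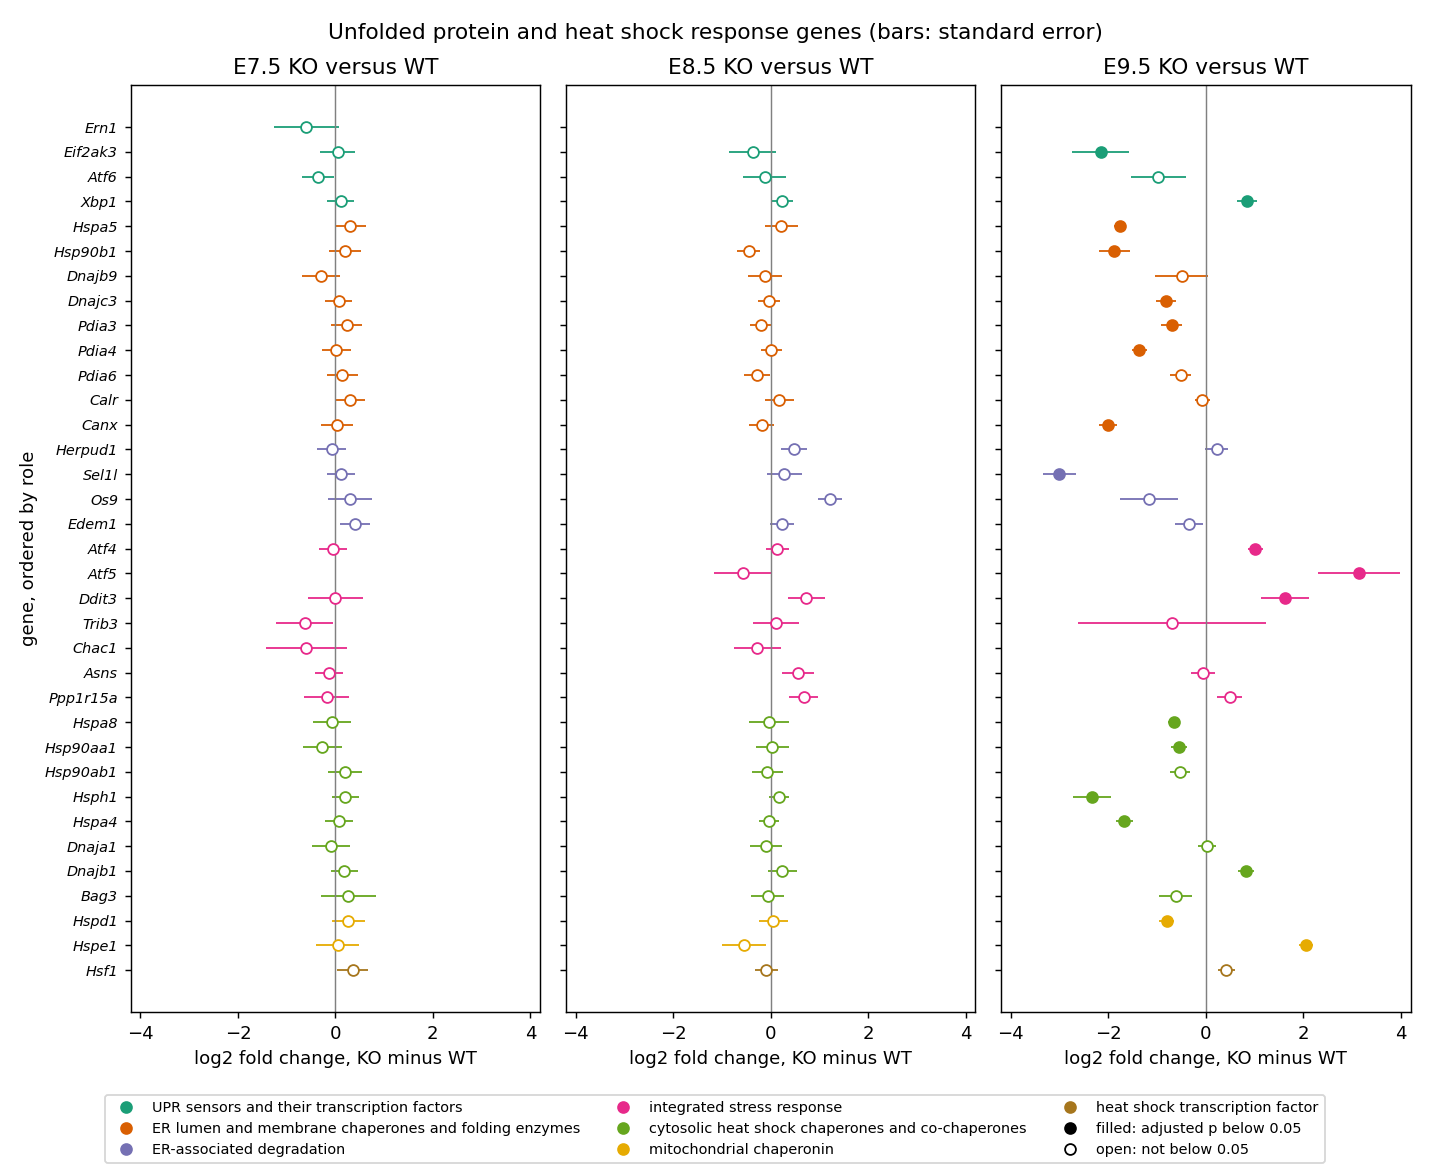
Log2 fold change, KO minus WT, of each member tested at E7.5, E8.5 and E9.5, coloured by role, with bars for the standard error and filled points for an adjusted p below 0.05. All points of E7.5 and E8.5 are open, and at E9.5 all 9 ER chaperones lie below 0, 6 of them filled.

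Of the 9 ER chaperones and folding enzymes among the members, 6 fell at E9.5 and 0 rose, where 23% of all genes were called lower. All 9 had a negative log2 fold change, and the other 3 (Dnajb9, Pdia6 and Calr) did not pass. Hspa5, which binds unfolded chains in the ER lumen and holds the sensors inactive, was at 15024 and 14966 normalised counts in WT1 and WT2, and KO1 and KO2 held 4267 and 4631. The groups were far apart and the WT libraries nearly equal, a 3.37-fold fall (log2 fold change -1.75, SE 0.13, adjusted p = 0.00084). Hsp90b1, the ER form of HSP90, was at 9991 and 10844 in WT against 2037 and 3956 in KO, a 3.67-fold fall (-1.87, SE 0.32, adjusted p = 0.0082). Canx, the membrane lectin that holds new glycoproteins, was at 4313 and 5421 in WT against 1320 and 1093 in KO, a 4.02-fold fall (-2.01, SE 0.19, adjusted p = 0.0017). The disulphide isomerase Pdia4 was at 3869 and 3919 in WT against 1381 and 1661 in KO, a 2.57-fold fall (-1.36, SE 0.16, adjusted p = 0.0030). In each of these genes both KO libraries lay below both WT libraries, as they did in 41.7% of all genes. Smaller falls passed for Pdia3, the partner of calnexin and calreticulin (log2 fold change -0.70), and Dnajc3, a co-chaperone of BiP (-0.82). Calr, the soluble counterpart of Canx, was at 5381 and 5567 in WT against 4711 and 5761 in KO, and these values overlap. Of the 6 members with an ERSE, Hspa5, Hsp90b1, Canx and Dnajc3 fell and Pdia6 (-0.52) and Calr (-0.07) did not pass. Together the 9 genes took 0.781% ± 0.0038 (SD, n = 2) of reads in WT and 0.199% ± 0.024 (SD, n = 2) in KO, on the scale of library totals, where the median log2 fold change of all genes was -1.08.

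**Figure D2:**
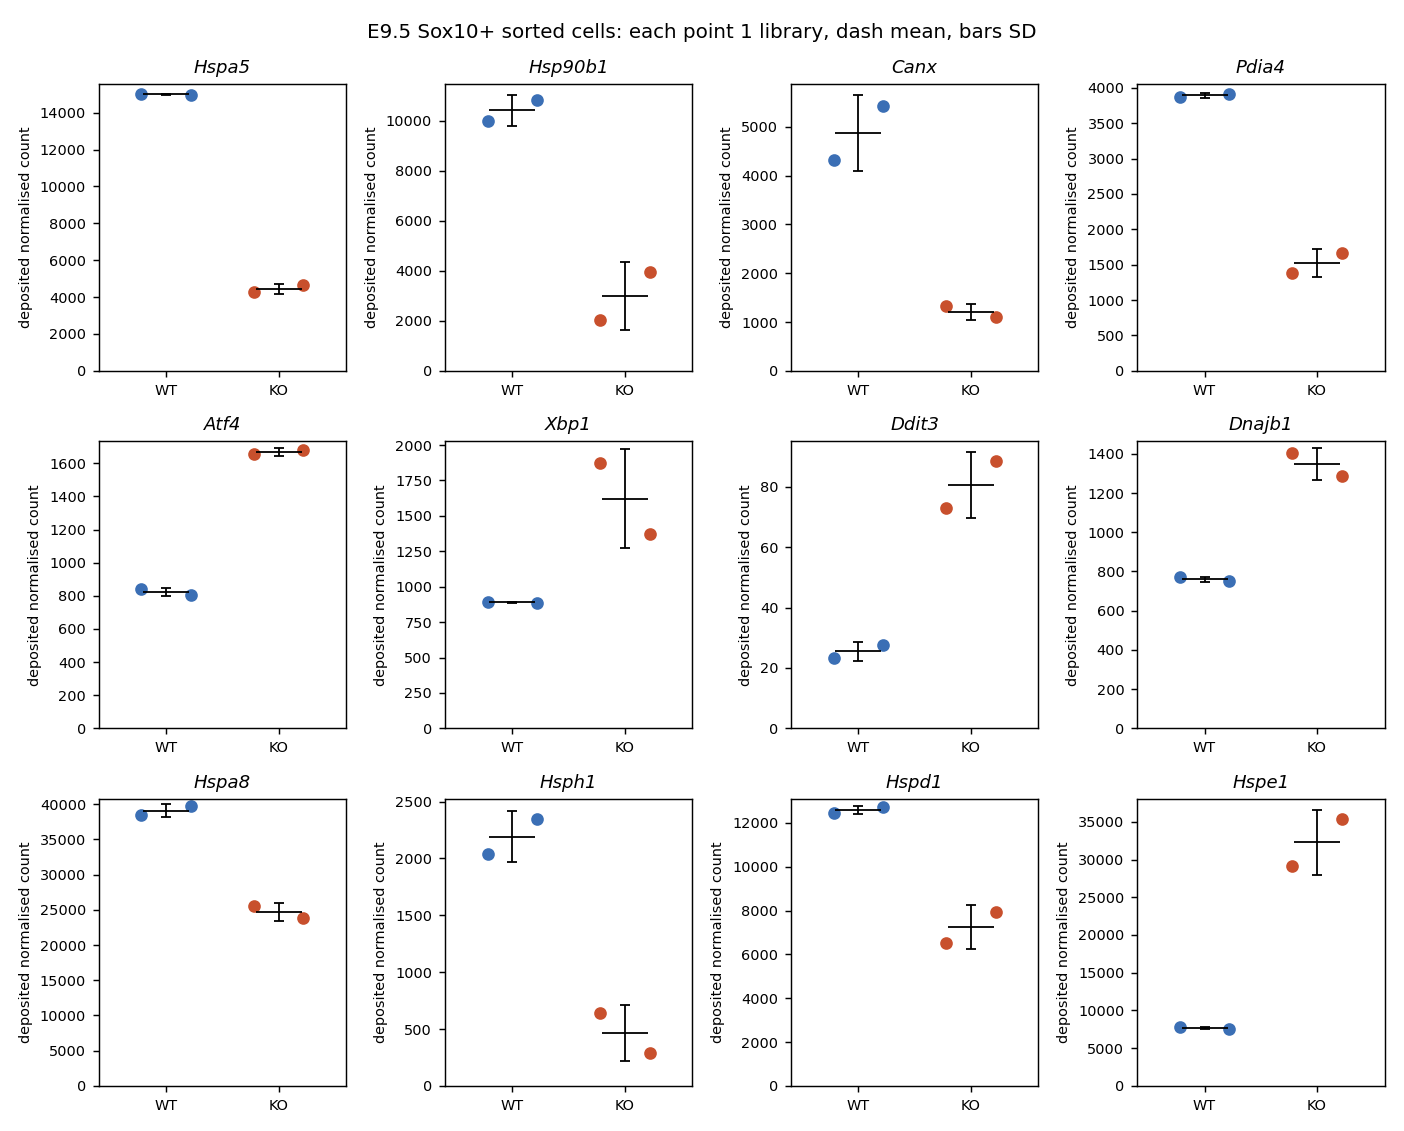
Deposited normalised counts of 12 members in the 2 WT and 2 KO libraries of E9.5 Sox10 positive cells, 1 point a library, with a dash for the mean and bars for the SD. Hspa5 drops from 15024 and 14966 to 4267 and 4631, while Hspe1 goes the other way, from 7576 and 7805 to 29198 and 35349.

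The sensors and their factors moved in different directions at E9.5. Eif2ak3, which encodes PERK, was at 70.9 and 79.7 in WT against 11.6 and 22.1 in KO and fell (log2 fold change -2.16, SE 0.59, adjusted p = 0.032). Xbp1, whose spliced form encodes the active factor, was at 891 and 888 in WT against 1871 and 1374 in KO and rose 1.80-fold (0.85, SE 0.21, adjusted p = 0.023). Gene counts do not separate spliced from unspliced Xbp1. Atf6 was at 127 in both WT libraries and at 105 and 39.1 in KO, and the difference did not pass (-0.98, adjusted p = 0.20). Ern1, too low to be tested, had 14 and 21 reads in WT and 0 in both KO libraries, where 0 allows up to 3 reads, that is 3.17 normalised counts in KO1 and 5.10 in KO2, against 14.2 and 10.6 in WT.

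Of 4 genes of ER-associated degradation, which returns misfolded proteins to the cytosol for destruction, 1 fell at E9.5. Of all genes, 23% were called lower. Sel1l, the scaffold of the Hrd1 ubiquitin ligase, was at 455 and 651 in WT against 77.1 and 57.8 in KO, an 8.05-fold fall (log2 fold change -3.01, SE 0.34, adjusted p = 0.0026), the most negative value of the 33 members tested. Os9, a lectin that hands glycoproteins to Sel1l, was at 310 and 290 in WT against 72.8 and 241 in KO. Its KO libraries differ widely, and the difference did not pass (-1.17, adjusted p = 0.15). Edem1, a mannosidase-like protein of the same route, and Herpud1, an ER membrane protein, did not pass (-0.34 and 0.22).

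In the integrated stress response 3 of 6 genes tested rose at E9.5 and 0 fell. Of all genes, 24.5% were called higher and 23% lower. Atf4, the transcription factor made when eIF2alpha is phosphorylated, was at 840 and 808 in WT against 1653 and 1683 in KO, a 2.02-fold rise (log2 fold change 1.02, SE 0.16, adjusted p = 0.0062). Ddit3, which encodes the factor CHOP, was at 23.3 and 27.8 in WT against 72.8 and 88.4 in KO, a 3.07-fold rise (1.62, SE 0.49, adjusted p = 0.043). In the authors' deposited table Ddit3 was also higher, with a log2 fold change of 1.65, but its adjusted p there was 0.086. GENCODE lists 2 overlapping loci named Ddit3. Atf5 rested on 2 and 8 reads in WT and 26 and 24 in KO (log2 fold change 3.14, SE 0.85, adjusted p = 0.031). Asns and Trib3, which like Ddit3 are known targets of ATF4, did not pass. Asns, asparagine synthetase, was at 1440 and 1367 in WT against 1669 and 1080 in KO. Trib3, a pseudokinase, had 10 and 21 reads in WT and 46 and 0 in KO, so that its 2 KO libraries lie on either side of WT. Chac1, a glutathione-degrading enzyme, had 3 and 8 reads in WT and 0 in both KO libraries and was not tested. Ppp1r15a, the phosphatase subunit GADD34 that ends the response, was at 267 and 263 in WT against 328 and 422 in KO and did not pass (0.49, adjusted p = 0.16).

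Among 8 cytosolic heat shock genes 4 fell and 1 rose at E9.5, where 23% of all genes were called lower and 24.5% higher. Hspa8, the constitutive HSP70, was at 38492 and 39721 in WT against 25591 and 23845 in KO, a 1.58-fold fall (log2 fold change -0.66, SE 0.12, adjusted p = 0.0094). Hsph1, an HSP110 nucleotide exchange factor, was at 2035 and 2351 in WT against 642 and 291 in KO, a 5.05-fold fall (-2.34, SE 0.39, adjusted p = 0.0076). Hspa4, a related exchange factor, was at 3824 and 4154 in WT against 1380 and 1134 in KO, a 3.18-fold fall (-1.67, SE 0.17, adjusted p = 0.0019). Hsp90aa1, the inducible HSP90, fell by 0.55 on the log2 scale. The co-chaperone Dnajb1 (HSP40) was the one that rose, from 770 and 749 in WT to 1406 and 1289 in KO, 1.77-fold (0.83, SE 0.17, adjusted p = 0.013). Hsp90ab1, Dnaja1 and Bag3 did not pass (-0.53, 0.02 and -0.62). Hsf1 was at 776 and 740 in WT against 969 and 1057 in KO and did not pass (0.42, adjusted p = 0.098). The 8 genes took 1.21% ± 0.016 (SD, n = 2) of reads in WT and 0.442% ± 0.0048 (SD, n = 2) in KO, again on the scale of library totals with its all-gene median of -1.08.

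The subunits of the mitochondrial chaperonin moved in opposite directions at E9.5. Hspe1, the HSP10 lid, was at 7805 and 7576 in WT against 29198 and 35349 in KO, a 4.18-fold rise (log2 fold change 2.06, SE 0.14, adjusted p = 0.00082), the smallest adjusted p of the 33 members tested. Hspd1, the HSP60 ring, was at 12452 and 12723 in WT against 6539 and 7943 in KO, a 1.75-fold fall (-0.80, SE 0.15, adjusted p = 0.010). The 2 genes lie head to head on chromosome 1, Hspd1 at chr1:55077835-55088243 on the minus strand and Hspe1 at chr1:55088132-55091307 on the plus strand (GENCODE M21, GRCm38). Their spans overlap, and the library kit does not mark strand, so reads in the shared stretch cannot be told apart. RefSeq gives Hspd1 2 promoter windows. One, at chr1:55087883-55088182, shares 285 bases with that of Hspe1, the HSE among them, and its start site lies 216 bases from that of Hspe1. The other, at chr1:55088194-55088493, whose start site is the end of the Hspd1 span given above, shares 4 bases with it and holds no HSE match. The promoter of Hspe1 at chr1:55087898-55088197 is printed because it overlaps the first of these Hspd1 windows, with the HSE in capitals.
Hspe1: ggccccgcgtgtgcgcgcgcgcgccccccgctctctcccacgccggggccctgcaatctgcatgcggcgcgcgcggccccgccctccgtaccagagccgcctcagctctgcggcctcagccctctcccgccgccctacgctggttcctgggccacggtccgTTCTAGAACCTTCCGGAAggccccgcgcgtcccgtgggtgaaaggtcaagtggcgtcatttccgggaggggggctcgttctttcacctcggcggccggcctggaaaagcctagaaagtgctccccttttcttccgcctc
The ratio of Hspe1 reads to Hspd1 reads was 0.627 and 0.595 in the E9.5 WT libraries and 4.46 and 4.45 in KO. At E8.5 it was 1.80, 1.74 and 1.12 in WT and 1.03, 0.884, 0.661 and 1.67 in KO, and at E7.5 it was 0.586 and 1.01 in WT and 0.582 and 0.749 in KO. The groups overlap at E7.5 and at E8.5.

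Transcript length moved with the fold changes at E9.5. Spearman's rho between log2 fold change and transcript length was -0.643 over 11929 genes and -0.637 over the 33 members, as a description across genes, which are not independent replicates. At E8.5 it was 0.10 over all genes and -0.03 over the members, and at E7.5 0.03 and 0.12. Hspe1 and Ddit3, which rose, have the shortest transcripts of the 33 (964 and 969 bases), and Sel1l (6300), Hsph1 (4764) and Canx (4281), which fell, have long ones. Within a library the deviations of all genes from the stage mean had a rho with length of 0.600 and 0.659 in the E9.5 WT libraries and -0.477 and -0.580 in KO. The stage mean holds both groups, so these opposite signs restate the trend of the fold changes and do not show which group carries it. At E8.5 this rho was -0.441, -0.376 and 0.498 in WT1_5s, WT2 and WT3. In KO1 to KO4 it was 0.032, -0.029, 0.475 and -0.417, so libraries differed within each group. At E7.5 it was 0.234 and -0.174 in WT and 0.199 and -0.131 in KO.

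**Figure D3:**
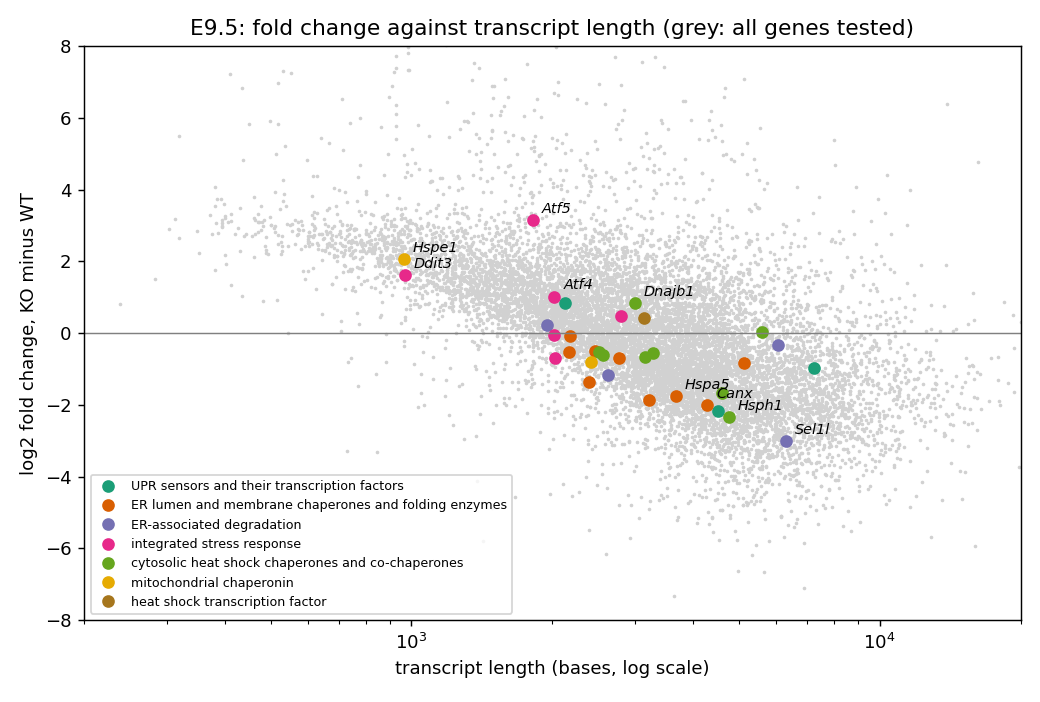
Log2 fold change, KO minus WT, at E9.5 against transcript length on a log axis, with all genes tested in grey and the 33 members coloured by role. The members follow the downward slope of the grey points, from Hspe1 at 964 bases to Sel1l at 6300 bases.

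The E9.5 comparison was therefore repeated with a trend over transcript length and GC content removed from each library, an alternative added after the data were seen. Then 16 members were called, 3 higher and 13 lower, where 25.2% of all genes were called (13.6% higher and 11.5% lower), and the median of the members was -0.80 against -0.13 for all genes. Of the 19 members called before, 11 kept their call, 10 of them lower and 1, Dnajb1, higher (0.81, adjusted p = 0.020). Hspa5 remained lower (-1.21, adjusted p = 0.0078), as did Pdia4 (-1.81), Hsp90b1 (-1.63), Canx (-1.13), Hspd1 (-1.22), Hspa8 (-0.44), Sel1l (-1.58), Hsph1 (-1.28), Hspa4 (-0.67) and Pdia3 (-0.80). The calls of Hspe1 (-0.05), Atf4 (0.13), Xbp1 (0.05), Ddit3 (-0.49) and Atf5 (2.08, adjusted p = 0.13) were lost, so that in the integrated stress response 0 of 6 genes was called. Those of Eif2ak3, Dnajc3 and Hsp90aa1 were lost as well, with Dnajc3 at 0.39. Pdia6 (-1.23), Calr (-0.80) and Hsp90ab1 (-0.94), which had not passed before, were called lower here, and Edem1 (1.05) and Dnaja1 (1.34) higher.

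Scaling also moved the split of the calls. The deposited values summed to 7392263 and 7499920 in the WT and to 13037864 and 14623235 in the KO libraries of E9.5. On recovered reads scaled to each library's total (RPM) the median log2 fold change of all genes was -1.08 and that of the members -1.42, and 1 member (Hspe1) was called higher and 21 lower, where 13.2% of all genes were called higher and 42.7% lower. Relative to the median of all genes, the members stood lower on both scales. Of the calls lost on RPM, Xbp1 (-0.04) and Dnajb1 (-0.06) were near 0 and Atf4 was at 0.13, while Ddit3 (0.75, adjusted p = 0.23) and Atf5 (2.38, adjusted p = 0.050) kept a positive value. Pdia6, Calr and Hsp90ab1 were called lower on RPM too, and so were Edem1 (-1.23) and Dnaja1 (-0.87), which were higher with the length and GC trend removed.

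Of the 19 calls at E9.5, 7 held under each of the 16 alternatives tried, the libraries left out in turn included, namely Hspa5, Hsp90b1, Pdia4, Canx, Sel1l, Hsph1 and Hspa4, all lower. Each of the other calls was lost under at least 1 of them. Without KO1, the library with the highest erythroid sum, the log2 fold change of Hspa5 was -1.69, and without KO2 it was -1.81. Without WT1 it was -1.75 and without WT2 -1.76. In 9 of the 33 members both KO libraries lay above both WT libraries, and in 18 below, where 38.6% and 41.7% of all genes did so. A positive log2 fold change was found in 10 of the 33 members and in 47.3% of all genes.

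**Figure D4:**
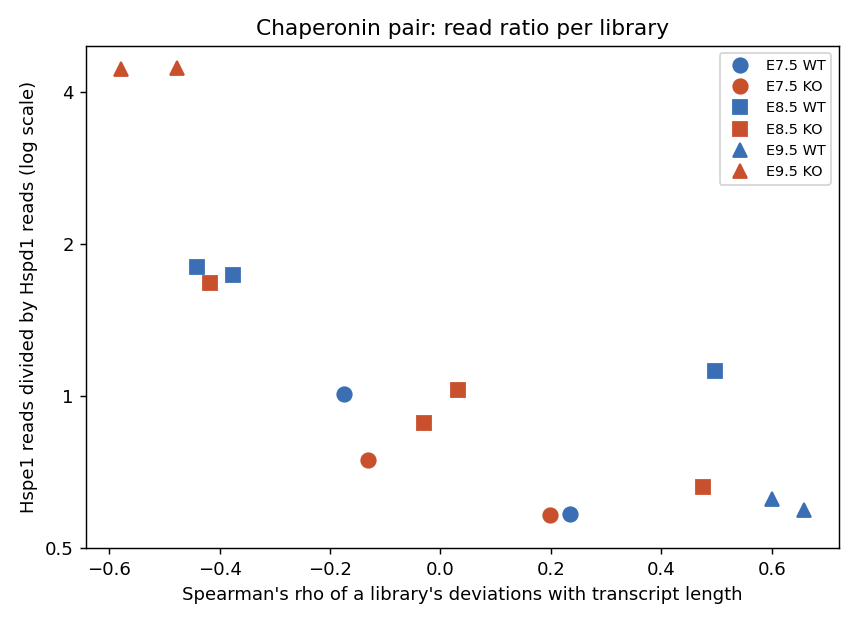
Ratio of Hspe1 to Hspd1 reads in each of the 15 libraries, on a log axis, against Spearman's rho of that library's gene deviations with transcript length. Deviations are from the mean of each stage, so rho compares libraries within a stage only. The 2 E9.5 KO libraries lie at ratios of 4.46 and 4.45 with a negative rho, and the 2 E9.5 WT libraries at 0.627 and 0.595 with a positive rho.

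At E8.5 the smallest p among the members was that of Os9. It was at 125, 200 and 130 normalised counts in WT1_5s, WT2 and WT3 and at 396, 351, 381 and 270 in KO1 to KO4. All 4 KO libraries lay above all 3 WT libraries, a 2.33-fold difference (log2 fold change 1.22, SE 0.25, unadjusted p = 0.00062) that did not pass after adjustment by limma (adjusted p = 0.61). DESeq2 called it on the recovered reads (adjusted p = 0.0093), the only member it called, where it called 0.261% of all genes. In the authors' deposited table it was also higher, with a log2 fold change of 1.21 and an adjusted p of 0.0128. Without KO1 and KO2, whose summed erythroid markers were 16957 and 26413 against 22.1 to 42.0 in WT, the log2 fold change was 1.11. Between KO4 and WT2, the only KO and WT libraries analysed here at E8.5 with the same code number, 169, the difference was 0.43. At E7.5 Os9 was at 242 and 101 in WT against 178 and 206 in KO, and these overlap.

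The other genes named at E8.5 did not pass either. Ppp1r15a was at 173, 124 and 150 in WT, against 273, 311, 253 and 146 in KO (log2 fold change 0.68, SE 0.29, unadjusted p = 0.042, adjusted p = 0.81), with KO4 within the WT range. Ddit3 was at 27.1, 27.0 and 13.7 in WT, against 48.6, 30.2, 36.7 and 33.6 in KO (0.74, SE 0.38, adjusted p = 0.84), without overlap. Hsp90b1 was at 15929, 15841 and 15043 in WT, against 11343, 12330, 10661 and 11372 in KO (-0.45, SE 0.24, adjusted p = 0.84), also without overlap and with a narrow spread in both groups. Herpud1 and Asns had log2 fold changes of 0.48 and 0.57, with overlapping groups. Hspa5, Xbp1, Atf4, Hspa8 and Hsf1 lay between -0.09 and 0.24. Unadjusted p was below 0.05 for 2 of 34 members, Os9 and Ppp1r15a, where 6.05% of all genes were. In 2 members (Os9 and Ddit3) all KO libraries lay above all WT libraries and in 1 (Hsp90b1) below, where 3.71% and 2.82% of all genes did. Log2 fold changes were positive for 17 of 34 members and for 46.9% of all genes.

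**Figure D5:**
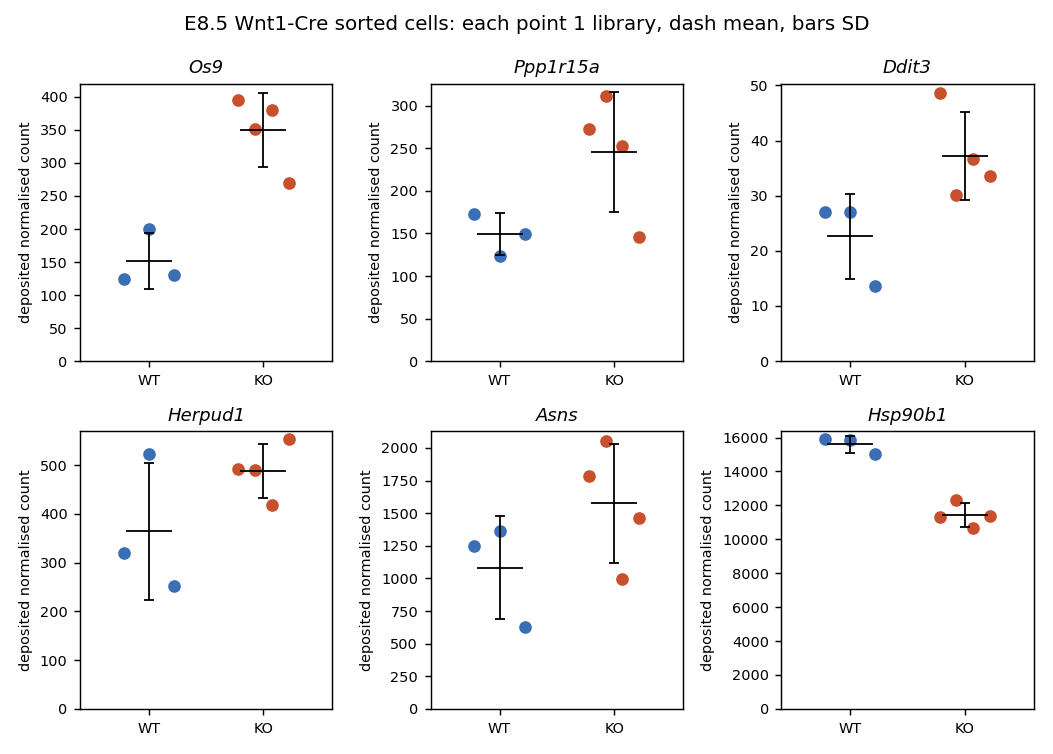
Deposited normalised counts of 6 members in the 3 WT and 4 KO libraries of E8.5 Wnt1-Cre cells, 1 point a library, with a dash for the mean and bars for the SD. Os9 and Ddit3 in KO lie above every WT library, Hsp90b1 lies below, and the groups of Ppp1r15a, Herpud1 and Asns overlap.

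The E8.5 spread was wide for several chaperones. Hspa8 ran from 26460 (WT3) to 74871 (WT2) within WT and from 42505 to 51234 in KO, and Hspa5 from 9204 (WT3) to 21476 (WT2) in WT and from 12656 to 20636 in KO. WT3 and WT2 also differed in the rho of their deviations with transcript length (0.498 and -0.376). The part this plays in the spread was not tested. Ern1 was below the minimum mean, at 1.35 to 16.2 over the 7 libraries.

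At E7.5 the differences were small beside the spread. The groups differed in trophoblast and uterine markers, as given above, and the part this plays here was not tested. Hspa5 was at 10087 and 10768 in WT against 12758 and 13077 in KO (log2 fold change 0.31, SE 0.32, unadjusted p = 0.36), without overlap and past no threshold. Xbp1 was at 1382 and 1195 in WT against 1257 and 1523 in KO, Atf4 at 739 and 560 against 597 and 647, and Ddit3 at 34.4 and 18.8 against 27.8 and 23.2, and in these the groups overlap. Edem1 (0.40), Calr (0.30) and Hsf1 (0.35) had positive and Trib3 (-0.63) and Atf6 (-0.36) negative log2 fold changes, none past the threshold. Atf5 was too low to test. Both KO libraries lay above both WT libraries in 7 of 34 members and below in 2, where 16.1% and 12.7% of all genes did, and 21 of 34 members had a positive log2 fold change, where 48.9% of all genes had. Unadjusted p was below 0.05 for 0 members and for 3.08% of all genes. The smallest adjusted p of all genes was 0.850.

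Levels per length were computed from the recovered reads, the total of each library and the merged exon length (RPKM). In the E9.5 WT libraries Hspa8 was highest (1221 ± 14.6), then Hsp90ab1 (1106 ± 1.66), Hspe1 (701 ± 21.9), Hspd1 (640 ± 3.19) and Hspa5 (476 ± 6.17; all SD, n = 2), and these neighbours are further apart than their SDs. In the E9.5 KO libraries Hspe1 was highest (1580 ± 85.3), followed by Hspa8 (418 ± 54.6) and Hsp90ab1 (417 ± 73.7), which did not differ beyond their spread, and Hspa5 was at 76.1 ± 1.77 (SD, n = 2). These levels still hold the trend with transcript length, and Hspe1 has the shortest transcript of the members tested at E9.5 (964 bases). With that trend removed, its log2 fold change at E9.5 was -0.05. Hspe1 had 1342 ± 432 (SD, n = 3) in WT and 1016 ± 305 (SD, n = 4) in KO at E8.5, and 631 ± 307 and 611 ± 62.1 (SD, n = 2 each) at E7.5. Ern1, Atf5 and Chac1 were each below 1 RPKM in E9.5 WT.

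Other genes of these pathways were counted from lists in the same fit, on the deposited scaling. Their E9.5 fold changes still hold the trend with transcript length described above. Values with that trend removed, or on RPM, are not reported here for these genes. At E7.5 and E8.5, 0 of them were called. At E9.5, where 24.5% of all genes were called higher and 23% lower, of 18 other ER folding genes 5 rose and 5 fell, with Ppib, a prolyl isomerase (4.06-fold), and Manf, a secreted ER stress factor (3.30-fold), higher and P4hb, a disulphide isomerase (2.20-fold), lower. Of 17 other degradation and translocation genes 3 rose and 6 fell, with Sec61b, a subunit of the translocon (6.20-fold), and Vimp (3.01-fold) higher and Vcp, the extracting ATPase (3.29-fold), lower. Of 10 other UPR regulators 2 rose and 3 fell, among them Creb3 (2.32-fold higher), Nfe2l1 (4.52-fold lower) and the site-1 protease Mbtps1 (3.14-fold lower). Of 27 other integrated stress response genes 5 rose and 7 fell, with Cebpb (4.42-fold) and the serine synthesis enzyme Psph (2.61-fold) higher and the amino acid transporter Slc7a5 (4.30-fold) lower.

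Of 23 other cytosolic heat shock genes 8 rose and 3 fell, including Stub1, a chaperone-bound ubiquitin ligase (3.58-fold), and Bag1 (3.26-fold), both higher, and Chordc1 (2.75-fold lower). Of 8 subunits of the cytosolic chaperonin TRiC 1 fell, Cct6a (1.42-fold), and 0 rose. Of 8 other mitochondrial chaperones and proteases 2 rose, Grpel1 (3.64-fold) and Clpp (3.08-fold), and 3 fell, among them Hspa9 (2.20-fold). Of all genes, 24.5% were called higher and 23% lower. The median log2 fold changes of these lists lay between -0.99 (UPR regulators) and 0.20 (cytosolic heat shock genes), where all genes had -0.14. These values too are without removal of the length trend.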

How the data were processed

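RNA was extracted with the miRNeasy kit from E7.5 embryos or sorted cells, and libraries were made with SMART-Seq v4 and Nextera XT, per the labels' protocols. The submitters' processing notes name FastQC 0.11.5, STAR 2.7.0f and the build mm10. How genes were counted and scaled is not given in the sources used here. For each stage, the authors deposited a table of normalised gene counts (signal), gene counts scaled by 1 factor per library. The authors also deposited lists of selected genes with a log2 fold change, its test score and its p-value. The E7.5 list of higher genes was not used for direction. Of its 2452 genes tested here, only 1252 had the sign of KO minus WT. It holds 7 members, and 3 of them (Chac1, Asns and Eif2ak3) had an adjusted p below 0.05 by the authors, as did 1701 of its 3369 rows.

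In all 15 libraries 100% of values were whole multiples of 1 read within 0.01, which gave reads and depth. Intervals and limits of counts cover counting error only. Values were analysed as log2(value + 1), with a minimum mean of 10, by limma 3.58.1 (R 4.3.3, trended, two-sided) with no covariate, each stage apart because tables were normalised separately. EdgeR 4.0.16 (TMM factors) and DESeq2 1.42.0 tested the recovered reads. Simulated counts tested the limma step: of 100 genes changed 4-fold among 12000, 58 were called at E9.5, of 100 changed 2-fold 5, and at E8.5, among 12257, 97 and 26. At E7.5, among 12492, they were 74 and 9. Only these genes were changed and no length trend was simulated. In the E9.5 data 47.5% of genes were called, so the simulated shares need not hold there. Other alternatives were pseudocounts 8 and 0.1, a minimum of 100 or none, TMM and quantile scaling, a threshold of 0.1, code numbers, a replicate block and each library left out, and, added after seeing the data, a loess trend (span 0.3) over length and GC, and scaling to library totals (RPM).

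Named at every stage were Hspa5, Xbp1, Atf4, Ddit3, Hspa8 and Hsf1, with up to 8 called members a direction by adjusted p, or members of smallest p up to 6, and up to 3 genes per pathway list. Other members are named to account for the list, after their values were seen. Members and lists were chosen with earlier results of these data known. Symbols were matched to GENCODE M21 (23334 current and 668 older names, 375 unmatched of 24421). The planned protein motif search was not run.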

Additional observations from a re-analysis of the deposited data

Results flagged for a closer look

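In the E8.5 KO group, where 34 members were checked, 2 had a library far from the other 3. Pdia4 was at 4621 normalised counts in KO3 and at 3243 to 3402 in the others, and Dnajb1 was at 1549 in KO4 and at 933 to 955 in the others. Chance flags about 1 in 20 such groups.

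For several members every KO library lay on one side of WT at one stage and on the other side at another stage. Separation within a stage was common over all genes. At E7.5 16.1% lay above and 12.7% below, at E8.5 3.71% and 2.82%, and at E9.5 38.6% and 41.7%. The share of all genes that changed sides between stages was not computed, so these members are not set apart from other genes. The difference between stages was not tested, and tissue and table differ between them. Hspa5 had a log2 fold change of 0.31 at E7.5 and -1.75 at E9.5. Hsp90b1 was at 0.20 at E7.5 but at -0.45 in the E8.5 cells and -1.87 in those of E9.5. Pdia3 was at 0.23 and -0.70, and Hsph1 at 0.21 and -2.34, at E7.5 and E9.5. Herpud1 was at -0.08 at E7.5 and 0.22 at E9.5. Os9 was at 1.22 at E8.5 and -1.17 at E9.5.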

How the results depend on the processing

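The replicate numbers of the titles did not pair the libraries: same-numbered KO and WT libraries had correlations of their deviations of 0.08, -0.02 and 0.55 at E8.5, -0.12 at E7.5 and -0.17 at E9.5. With the replicate block, 4 members were called at E8.5 (Os9, Ppp1r15a and Asns higher, Hspe1 lower). Over all genes, 678 of 12257 were called there, and 47 of 12492 at E7.5. KO4 has no WT library of its number at E8.5, so the block leaves it out of these fold changes. Its Ppp1r15a value, 146 normalised counts, is within the WT range. No member was called at E7.5 in any setting tried.

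Calls over all genes at E7.5 numbered 34 with DESeq2, 17 with code number 239 only and 12 to 38 with a library left out. At E8.5 DESeq2 called 32 genes and 1 member, and leaving out a library gave 0 to 3 genes. At E9.5 leaving out a library gave 8 to 24 members, 1920 to 8689 genes and member medians of -0.63 to -0.40. With the length and GC trend removed 3002 genes were called at E9.5, and the member median was -0.80 there and 0.13 at E7.5. The E9.5 median was -0.70 with TMM, -0.80 with quantile scaling, -0.47 with DESeq2 and -1.42 on RPM. The causes of these shifts were not tested.

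Signs turned in the following settings. At E7.5 and E8.5 none of these members was called before. At E7.5 they were Ddit3 (0.028 with TMM, 0.17 with quantile scaling, 0.12 with code number 239 only, 0.16 with the trend removed), Hspa8 (0.11 with quantile scaling, 0.016 with the trend removed) and Xbp1 (-0.032 with code number 239 only). With a library left out the E7.5 values ran from -0.42 to 0.41 for Ddit3, -0.25 to 0.15 for Atf4, -1.38 to 0.12 for Trib3, -0.30 to 0.16 for Hspa8 and -0.032 to 0.24 for Xbp1. At E8.5 they were Hspa8 (0.14 with quantile scaling, 0.20 with code numbers 163 and 169 as a block, 0.12 on RPM) and Hsf1 (0.026 with that block, 0.23 without KO1 and KO2, 0.058 on RPM). With a library left out the E8.5 values ran from -0.43 to 0.32 for Hspa8, -0.23 to 0.027 for Hsf1, -0.11 to 0.50 for Hspa5 and -0.13 to 0.29 for Atf4. At E9.5, members called higher turned sign and lost their call: Ddit3 (-0.49) and Hspe1 (-0.052) with the trend removed, and Xbp1 (-0.041) and Dnajb1 (-0.065) on RPM. Hsf1, not called, was at -0.47 on RPM. The alternative with KO4_5s was not run. With 2 libraries a group a lone library left in a group is assumed to vary like the others. Depth limits Ern1, Atf5, Trib3 and Chac1, each with under 50 reads in every E9.5 library.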
